A study of Mus musculus with 6 samples.

Results

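The 10 genes described here encode the antigen receptor complex of T cells and its coreceptors: the CD3 chains Cd3d, Cd3e, Cd3g and Cd247, the receptor constant regions Trac, Trbc1 and Trbc2, and the coreceptor chains Cd8a, Cd8b1 and Cd4. They were taken by symbol from the 55951 genes of the deposited expression table, and each symbol had a single row. RNA was sequenced from splenic CD8 effector-memory T cells (TEM) of C57BL/6 mice of the S100A4-EGFP genotype, a reporter of S100A4 expression, in which asthma had been induced with OVA (ovalbumin). All cells were sorted as CD3+, CD8+, CD4- and CD44+ with 1 more marker of the effector-memory state, and both groups therefore share strain, reporter, asthma model and gate. The 3 S100A4-negative libraries came from EGFP- cells and the 3 S100A4-positive libraries from EGFP+ cells. The labels give no age, no sex and no number of animals, and do not say whether the 3 samples of a group came from separate mice, so p-values here reflect only how far these samples vary, which may be technical variation.

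A T cell recognises antigen through an alpha and a beta chain, each made of a rearranged variable part joined to a constant region. These chains cannot signal by themselves and reach the surface only together with CD3 delta, epsilon and gamma and the zeta chain CD247, whose tails carry the motifs that the kinase LCK phosphorylates. The coreceptors bring LCK to the complex: CD8, usually an alpha-beta heterodimer on conventional T cells, binds MHC class I, and CD4 binds MHC class II.

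Most of these genes lie beside another member on their chromosome, and the start sites of 5 of the 10 are in the RefSeq promoter table (GRCm38.p6), which gives 250 bases before and 50 after the start. They are shown because the CD3 genes differed together between the groups described further on. Capitals mark matches, on either strand, to 5 short motifs of factors used in T cells. The letters searched were AGGAAGT for ETS factors, TGTGGT for RUNX proteins, CAGGTG for proteins that bind E-boxes, CTTTGAT for TCF and LEF factors and AGATAAG for the zinc-finger family of GATA factors.

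Cd3d (chr9:44981536-44981835, + strand): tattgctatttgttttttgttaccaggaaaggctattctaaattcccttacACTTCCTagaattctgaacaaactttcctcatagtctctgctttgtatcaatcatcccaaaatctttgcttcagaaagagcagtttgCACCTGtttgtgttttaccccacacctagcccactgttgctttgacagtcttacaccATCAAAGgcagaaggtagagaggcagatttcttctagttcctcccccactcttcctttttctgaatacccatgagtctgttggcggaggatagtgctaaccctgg
Cd3e (chr9:45009562-45009861, - strand): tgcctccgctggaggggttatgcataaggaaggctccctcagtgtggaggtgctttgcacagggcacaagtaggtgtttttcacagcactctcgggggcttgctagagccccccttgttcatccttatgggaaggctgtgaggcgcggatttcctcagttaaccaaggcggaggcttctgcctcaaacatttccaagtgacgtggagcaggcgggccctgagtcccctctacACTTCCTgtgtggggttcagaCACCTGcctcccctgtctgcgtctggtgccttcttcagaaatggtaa
Cd3g (chr9:44980382-44980681, - strand): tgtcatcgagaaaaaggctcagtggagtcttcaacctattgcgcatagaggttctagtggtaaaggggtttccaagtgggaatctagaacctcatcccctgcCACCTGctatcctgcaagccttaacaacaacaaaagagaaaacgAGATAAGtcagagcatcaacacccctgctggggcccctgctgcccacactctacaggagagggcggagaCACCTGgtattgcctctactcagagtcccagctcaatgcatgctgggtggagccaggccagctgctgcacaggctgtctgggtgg
Cd247 (chr1:165788431-165788730, + strand): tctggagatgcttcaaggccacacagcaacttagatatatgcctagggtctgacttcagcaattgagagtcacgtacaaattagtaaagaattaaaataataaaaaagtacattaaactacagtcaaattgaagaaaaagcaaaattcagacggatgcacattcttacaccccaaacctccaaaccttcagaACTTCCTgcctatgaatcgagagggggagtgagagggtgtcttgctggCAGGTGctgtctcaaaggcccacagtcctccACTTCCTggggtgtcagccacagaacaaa
Cd8a (chr6:71373177-71373476, + strand): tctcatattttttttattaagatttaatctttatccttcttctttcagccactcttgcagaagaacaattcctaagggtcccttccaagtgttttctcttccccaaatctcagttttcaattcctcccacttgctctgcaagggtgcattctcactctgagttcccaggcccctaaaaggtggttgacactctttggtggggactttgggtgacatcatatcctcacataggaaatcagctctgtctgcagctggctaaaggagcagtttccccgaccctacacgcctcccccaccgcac

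The ETS letters occurred in 3 of these 5 windows, against 9.35% of 32851 promoters in the table, and the E-box letters in 4 of 5, against 20.2%. No 2 of the printed matches overlap. Cd3e and Cd247 carried both motifs, Cd3d carried both and a TCF/LEF match (held by 3.73% of all promoters), and Cd3g carried 2 E-box matches and a GATA match (3.04%). The Cd8a window held none of the 5 motifs, and the RUNX letters, found in 16.8% of all promoters, were in none of the 5 windows. A match describes letters only, and shows neither binding nor use of the site.

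The beta-chain constant genes raise a question of measurement, so their coding sequences are shown where they differ. Over 518 coding bases Trbc1 and Trbc2 differed at 23 positions (95.6% identity). Their first exon of 375 bases differed only at position 260, counted from 1 at the first base of the constant region, and the longest identical run was 259 bases. The stretch from position 361 to 518 held the other 22 differences, printed in capitals.

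Trbc1: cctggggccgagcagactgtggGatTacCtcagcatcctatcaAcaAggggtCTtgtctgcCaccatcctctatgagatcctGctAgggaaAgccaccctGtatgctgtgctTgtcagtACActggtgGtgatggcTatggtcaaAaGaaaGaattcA
Trbc2: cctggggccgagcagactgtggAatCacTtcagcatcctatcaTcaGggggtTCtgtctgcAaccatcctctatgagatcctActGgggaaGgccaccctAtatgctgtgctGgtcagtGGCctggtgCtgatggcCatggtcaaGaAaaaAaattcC

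A fragment that lies within the first exon and misses position 260 therefore matches both genes. How the authors assigned such reads is not stated in the sources used here, and the division between Trbc1 and Trbc2 is uncertain. Trbc1 (ENSMUSG00000076490) lies at chr6:41538218-41539881 and Trbc2 (ENSMUSG00000076498) at chr6:41546730-41548352 of GRCm38, both on the + strand and 6848 bases apart.

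The libraries held 14925260 to 18660188 reads, recovered from the deposited values. S100a4 itself, the gene the reporter follows, was low throughout, at 0, 0.405 and 0.129 FPKM (fragments per kilobase of transcript, scaled to the mapped total) in S100A4-negative and 1.27, 4.02 and 1.52 in S100A4-positive libraries. The labelled cell type was checked with the members: all 4 CD3 genes, Trac, both beta constants and both CD8 chains were read in every library, from at least 236 reads per gene and library. Against the labelled gate, Cd4 transcripts were also read in every library, from 946 to 7875 reads, and their FPKM exceeded that of Cd8a in 4 of 6 libraries. These 4 were S100A4-negative replicate 2 and all 3 S100A4-positive libraries. Markers of monocytes and macrophages summed to between 588 and 713 FPKM in S100A4-negative and between 6484 and 7421 FPKM in S100A4-positive libraries, and their part in the members' values was not tested. A lower value in a bulk sample cannot tell fewer cells of a type apart from less RNA per cell.

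Across the receptor complex the S100A4-positive libraries were lower. Of the 10 genes, 9 were called lower at a limma adjusted p under 0.05, and Cd4 did not pass. Of all 13241 genes tested, those whose FPKM averaged 1 or more, 62.3% were called, 43.4% lower and 19.0% higher, so being called is common in this comparison. Their median log2 fold change, measured on log2(FPKM + 1) and negative where S100A4-positive libraries were lower, was -2.59 against -0.36 for all tested genes. In all 10 genes the 3 S100A4-positive libraries lay below the 3 S100A4-negative ones, as they did in 49.1% of tested genes (20.9% separated the other way). The members' reads came to 2292, 2333 and 1958 reads per 1000000 in S100A4-negative replicates 1, 2 and 3, and to 300.4, 366 and 484 reads per 1000000 in the S100A4-positive ones.

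**Figure D1:**
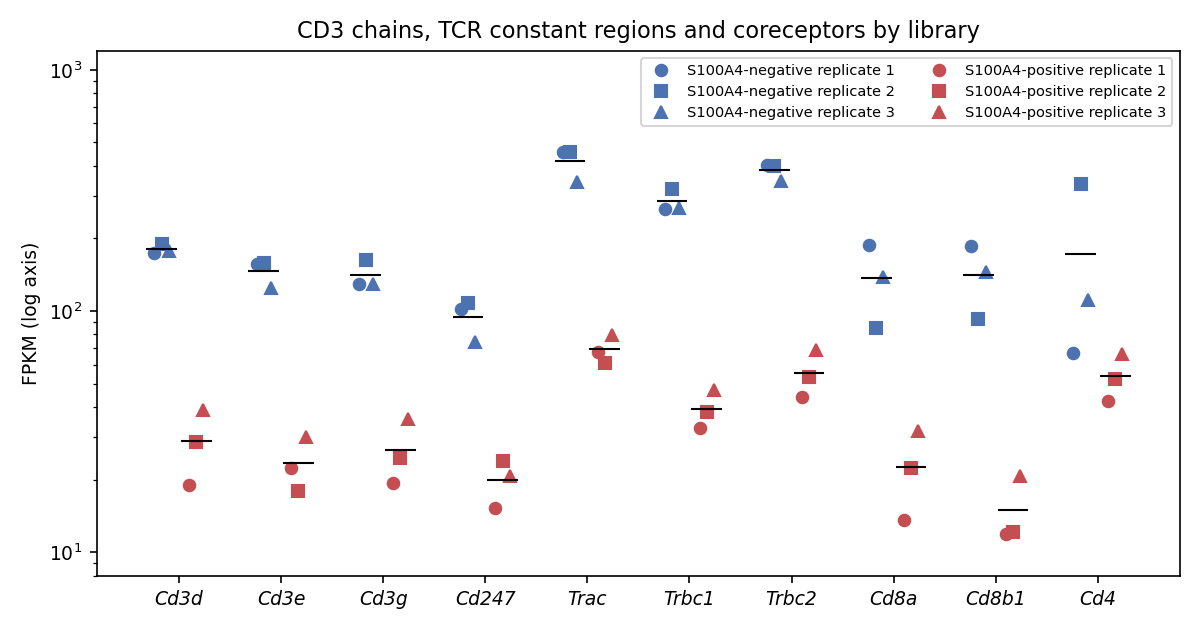
FPKM (log axis) of the 10 genes in each library, with S100A4-negative libraries in blue, S100A4-positive in red, a marker shape for each replicate number and a line at each group mean. In every gene the red points lie below the blue ones, and Cd4 has the widest blue spread, from 67.2 to 337 FPKM.

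Cd3d, Cd3e and Cd3g encode the delta, epsilon and gamma chains, which pair as epsilon-delta and epsilon-gamma. They stand side by side on chromosome 9. Cd3g (ENSMUSG00000002033, chr9:44969572-44980431, - strand) ends 1354 bases before Cd3d (ENSMUSG00000032094, chr9:44981786-44987339, + strand), which is 11400 bases from Cd3e (ENSMUSG00000032093, chr9:44998740-45009627, - strand). Cd3d stood at 174, 190 and 177 FPKM in S100A4-negative replicates 1, 2 and 3 and at 19.0, 28.8 and 38.7 FPKM in the S100A4-positive ones. Its S100A4-negative libraries were the most alike of any member's (coefficient of variation 4.44%), while S100A4-positive replicate 3 was well above replicate 1. Cd3d fell by 2.66 on the log2 scale (SE 0.23, limma adjusted p = 1.29e-04).

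Cd3e was read at 156, 158 and 124 FPKM in S100A4-negative and at 22.4, 18.0 and 30.2 FPKM in S100A4-positive libraries. Replicate 3 was the lowest of the former and the highest of the latter, and the groups were far apart. Cd3e fell by 2.61 (SE 0.20, limma adjusted p = 7.51e-05). Cd3g was at 129, 163 and 130 FPKM in S100A4-negative and 19.3, 24.7 and 35.7 FPKM in S100A4-positive libraries. It was highest in S100A4-negative replicate 2 and, like Cd3d, in S100A4-positive replicate 3, with no overlap. Its log2 fold change was -2.40 (SE 0.22, limma adjusted p = 1.56e-04). Of the exon bases of Cd3e, 3.31% are also covered by Gm48719 on the other strand, which fell alongside (14.3 ± 1.08 to 2.19 ± 1.22 FPKM, SD, n = 3). The strand setting of the counting is not stated in the sources used here, so reads of this pair cannot be told apart.

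Cd247 encodes the zeta chain, which carries more signalling motifs than the other CD3 chains and also serves Fc receptors of natural killer cells. It lies apart from the others, at chr1:165788681-165877277 (ENSMUSG00000005763, + strand). Its FPKM was 102, 108 and 74.3 in S100A4-negative and 15.2, 24.0 and 20.7 in S100A4-positive libraries. The groups did not overlap, and S100A4-positive replicate 1 was the lowest. Cd247 had the smallest fall of the 9 genes called, at -2.20 (SE 0.21) on the log2 scale (limma adjusted p = 1.66e-04). Pou2f1, a transcription factor gene on the other strand, shares 56.4% of the annotated exon bases of Cd247, and Gm16565 on the same strand shares 3.87%. Pou2f1 went from 34.2 ± 1.92 to 21.4 ± 4.38 FPKM (SD, n = 3), a smaller difference than that of Cd247, and reads in the shared bases cannot be attributed to either gene here.

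Trac (ENSMUSG00000076928, chr14:54220521-54224206, + strand), the alpha-chain constant region, was at 458, 455 and 342 FPKM in S100A4-negative and 67.9, 60.6 and 79.9 FPKM in S100A4-positive libraries. Replicate 3 was the lowest S100A4-negative library and the highest S100A4-positive one, as for Cd3e. The log2 fold change of Trac was -2.57 (SE 0.17, limma adjusted p = 4.23e-05).

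Trbc1 was read at 266, 321 and 268 FPKM in S100A4-negative and 32.9, 38.2 and 47.2 FPKM in S100A4-positive libraries, and Trbc2 at 405, 401 and 346 against 44.0, 53.1 and 68.8 FPKM. In both genes S100A4-positive replicate 1 was lowest and replicate 3 highest. The log2 fold changes were -2.83 for Trbc1 (SE 0.16, limma adjusted p = 2.62e-05) and -2.79 for Trbc2 (SE 0.18, limma adjusted p = 4.06e-05). Summing reads of both genes, which the uncertain division does not affect, gave 446, 478 and 407 reads per 1000000 in S100A4-negative and 51.0, 60.6 and 77.1 in S100A4-positive libraries. The summed mean was 7.06-fold lower in S100A4-positive libraries (exact two-sided permutation p = 0.1, the smallest that 3 against 3 allows). Trbc1 took between 37.2% and 42.0% of the reads of the pair in the 6 libraries, and the share overlapped between groups.

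The CD8 genes lie together, with Cd8b1 (ENSMUSG00000053044, chr6:71322788-71337494) 35932 bases from Cd8a (ENSMUSG00000053977, chr6:71373427-71379173), both on the + strand. Cd8a, the alpha chain, which can form homodimers, was at 187, 85.2 and 139 FPKM in S100A4-negative and 13.6, 22.4 and 31.9 FPKM in S100A4-positive libraries. S100A4-negative replicate 2 was well below its fellows but still above every S100A4-positive library. Its log2 fold change was -2.55 (SE 0.36, limma adjusted p = 9.18e-04). Cd8b1, the beta chain, which needs the alpha chain to reach the surface, was at 186, 92.9 and 146 FPKM in S100A4-negative and 11.9, 12.1 and 20.8 FPKM in S100A4-positive libraries. It again was lowest in S100A4-negative replicate 2, and its S100A4-positive replicates 1 and 2 were nearly equal. Cd8b1 had the largest fall of the 10 genes, -3.15 (SE 0.30, limma adjusted p = 1.71e-04), and ranked 108th of 13241 from the most negative.

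Cd4 (ENSMUSG00000023274, chr6:124864692-124888221, - strand), the coreceptor that the gate excluded at the protein level, varied most among the S100A4-negative libraries. Its FPKM was 67.2, 337 and 111 in S100A4-negative and 42.5, 52.4 and 66.6 in S100A4-positive libraries. The groups were separated only narrowly, at 67.2 against 66.6 FPKM, and S100A4-negative replicate 2 was far above the next library. The difference of -1.35 (SE 0.53, 95% interval -2.59 to -0.11) did not pass (limma adjusted p = 0.0576). Without S100A4-negative replicate 2 it was -0.70 (limma adjusted p = 0.0701), whereas without S100A4-negative replicate 1 it was -1.85 and passed (limma adjusted p = 0.0144). The other 9 genes stayed called lower without S100A4-negative replicate 2, with log2 fold changes from -3.42 for Cd8b1 to -2.09 for Cd247. In the authors' deposited table the same 9 genes are called and Cd4 is not (adjusted p = 0.598), with log2 fold changes from -2.86 for Cd8b1 to -1.31 for Cd4.

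**Figure D2:**
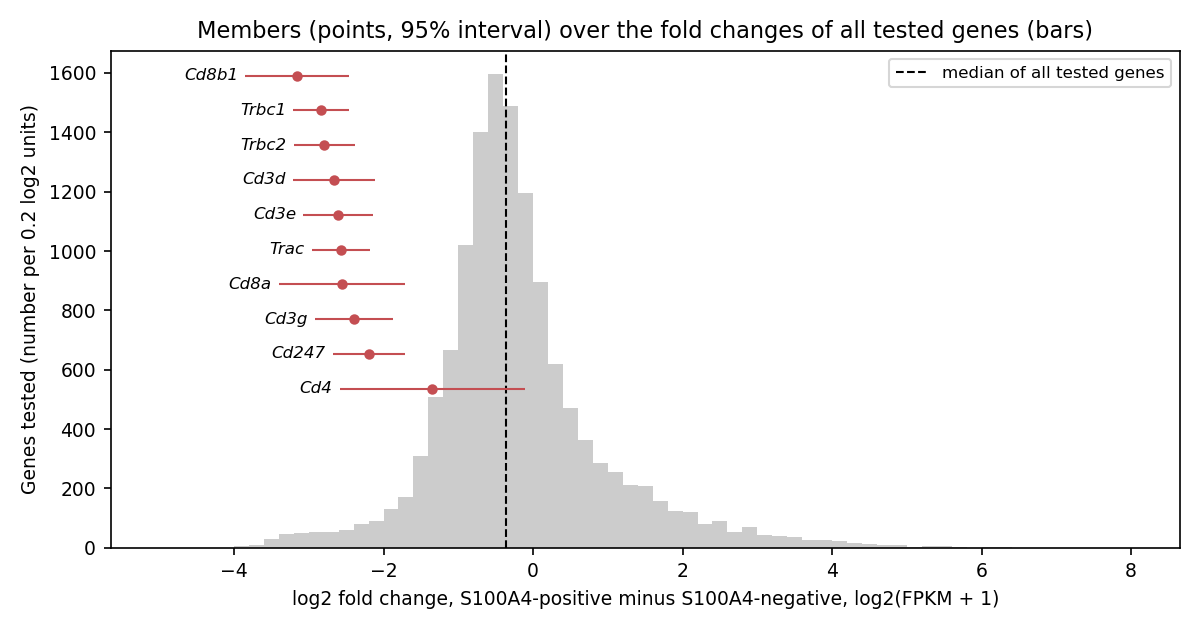
Log2 fold changes (S100A4-positive minus S100A4-negative, log2(FPKM + 1)) of the 10 genes as red points with 95% intervals, over a histogram of the 13241 tested genes (grey bars, genes per bin) with their median of -0.36 as a dashed line. The 9 called genes lie in the left tail, between -3.15 and -2.20, and the interval of Cd4 runs from -2.59 to -0.11.

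Levels per length were ordered within each group. In S100A4-negative libraries the order of mean FPKM was Trac (418 ± 66.2, SD, n = 3), Trbc2 (384 ± 33.3), Trbc1 (285 ± 31.3), Cd3d (180 ± 8.01), Cd4 (172 ± 145), Cd3e (146 ± 19.1), Cd8b1 (141 ± 46.6), Cd3g (141 ± 19.2), Cd8a (137 ± 51.1) and Cd247 (94.7 ± 17.9). The steps from Trbc2 to Trbc1 and from Trbc1 to Cd3d were the only ones of 9 between neighbours whose library ranges did not overlap. In S100A4-positive libraries the constant regions Trac (69.5 ± 9.75) and Trbc2 (55.3 ± 12.5) again came first, Cd4 (53.8 ± 12.1) came next and Cd8b1 (14.9 ± 5.06) last, and all 9 neighbouring pairs overlapped. The order depends on the transcript length behind FPKM. The authors' values match the mean length of all annotated transcripts of a gene, short forms included. With the longest transcript, an alternative chosen after seeing the data, the rank of Cd4 moved from 5 to 9 and that of Cd3d from 4 to 8 in S100A4-negative libraries, while the 3 constant regions stayed the top 3. In S100A4-positive libraries the rank of Cd4 moved from 3 to 5 by that length, and Cd3g (34.4 ± 10.8, SD, n = 3) came level with Trbc1 (33.4 ± 6.15).

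Ratios within a library compare members independently of the overall scale of that library, and 10 were computed on FPKM. No ratio passed, since 3 against 3 cannot give an exact two-sided permutation p below 0.1 (Benjamini-Hochberg adjusted p from 0.667 to 1). Among the CD3 and receptor genes, the ratios of Trac to Cd3e and of Trbc2 to Trbc1 varied least between libraries. Trac over Cd3e was 2.93, 2.88 and 2.75 in S100A4-negative and 3.03, 3.38 and 2.65 in S100A4-positive libraries, and Trbc2 over Trbc1 was 1.53, 1.25 and 1.29 against 1.34, 1.39 and 1.46. Cd3d over Cd3e ran from 0.848 to 1.60 and Cd3g over Cd3e from 0.824 to 1.37, and the groups overlapped in both. Cd247 over Cd3e was between 0.599 and 0.684 in 5 libraries and 1.34 in S100A4-positive replicate 2. In that library Cd3e was at its lowest and Cd247 at its highest among the S100A4-positive libraries.

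Cd8b1 over Cd8a was the single ratio of the 10 whose groups did not overlap. It was 0.991, 1.09 and 1.05 in S100A4-negative libraries and 0.874, 0.541 and 0.650 in S100A4-positive libraries, a log2 difference of -0.63 (permutation p = 0.1, exact and two-sided, and 0.667 after Benjamini-Hochberg adjustment over 10 ratios). The ratio was lowest in S100A4-positive replicates 2 and 3. Cross-presenting dendritic cells of the mouse spleen are known to carry the CD8 alpha chain without the beta chain. The markers Xcr1 and Clec9a of those cells stood highest in the same libraries. Xcr1, a chemokine receptor, was at 7.30 and 6.34 FPKM there against 0.480 to 1.01 in the other 4 libraries. Clec9a, a receptor for dead cells, was at 14.2 and 16.6 against 0.689 to 4.03. The higher calls of both were lost with no filter and without S100A4-positive replicate 2 or 3. Not all dendritic cell markers followed this order. Clec10a was highest in S100A4-positive replicate 1 (10.9 FPKM) and Siglech in S100A4-negative replicate 3 (16.2 FPKM). All 11 dendritic cell markers summed to 415 to 560 FPKM in S100A4-negative and 647 to 1199 FPKM in S100A4-positive libraries, and none was at 0 in every library. Their part in the ratio was not tested.

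Cd4 over Cd8a spanned 0.358, 3.96 and 0.798 in S100A4-negative libraries and 3.13, 2.34 and 2.09 in S100A4-positive ones. With the longest transcripts it was 0.176, 1.95 and 0.393 against 1.54, 1.15 and 1.03, so the same 4 libraries held more Cd4 than Cd8a by either length. Cd4 over Cd3e was 0.429, 2.14 and 0.894 against 1.90, 2.91 and 2.21, overlapping at S100A4-negative replicate 2 (exact two-sided permutation p = 0.2). In S100A4-negative replicate 2 both CD8 chains were low relative to Cd3e: Cd8a over Cd3e was 0.540 there against 1.20 and 1.12 in its fellows, and Cd8b1 over Cd3e was 0.589 against 1.19 and 1.17.

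**Figure D3:**
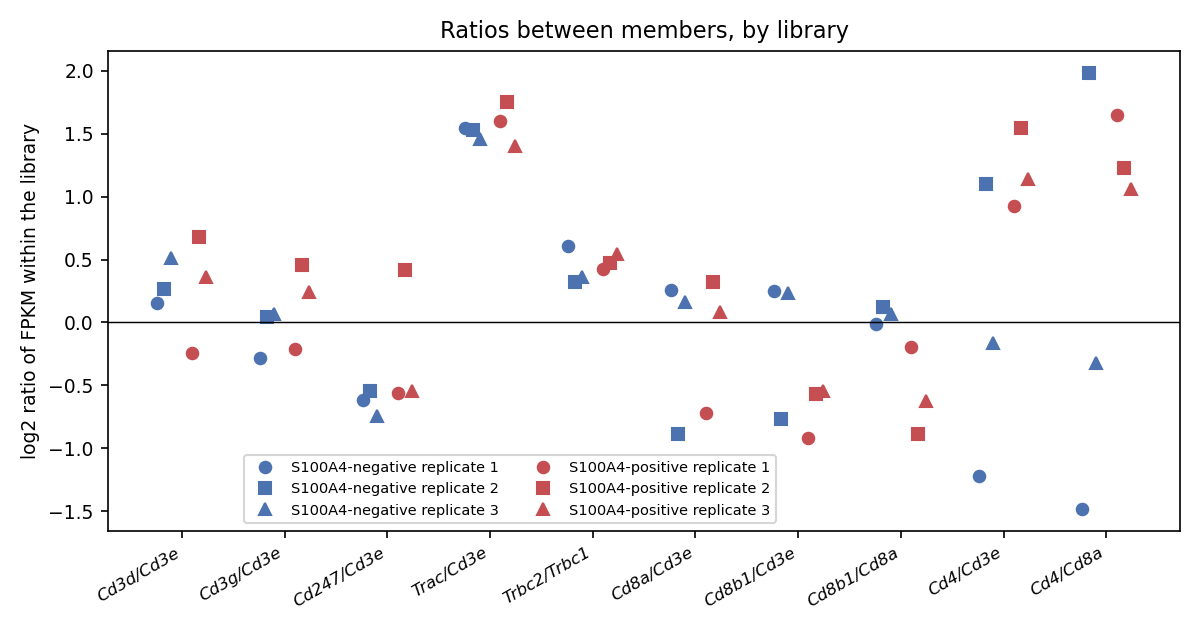
Log2 ratios of FPKM between pairs of members, one point per library, S100A4-negative in blue and S100A4-positive in red, with marker shapes for replicate numbers. The groups separate only for Cd8b1/Cd8a, and for Cd4/Cd8a S100A4-negative replicate 2 stands at 1.99, above all S100A4-positive libraries.

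Genes of helper and regulatory CD4 T cells were described next, because Cd4 was present. Of 14 such genes 9 were called lower, 1 higher and 4 neither, with a median log2 fold change of -1.30. Of all tested genes 43.4% were called lower and 19.0% higher. The count called lower was 7 with median-of-ratios scaling and 6 with voom and the authors' size factors. It was 10 with array weights or the replicate block. The summed FPKM of the 14 genes was 617, 1122 and 693 in S100A4-negative and 295, 314 and 355 in S100A4-positive libraries. The sum was highest in the library where Cd4 was highest. Izumo1r, the folate receptor of regulatory and helper T cells, was at 64.6, 140 and 74.2 FPKM in S100A4-negative and 14.3 ± 4.02 FPKM (SD, n = 3) in S100A4-positive libraries, and fell by 2.57. Ctla4, Icos and Ikzf2, which encode an inhibitory receptor, a costimulatory receptor and a regulatory T cell transcription factor, fell by 2.44, 1.95 and 1.91. Ccr4, a chemokine receptor of type 2 helper cells, was at 7.42, 31.5 and 6.57 FPKM in S100A4-negative libraries and did not pass (-1.07, limma adjusted p = 0.118). Rora (-0.47, limma adjusted p = 0.0679) did not pass either, but did with array weights, with the replicate block and without S100A4-negative replicate 3. Bcl6, the regulator of follicular helper cells, which macrophages and B cells also use, was the gene called higher (1.18). The part of such cells in the Cd4 values was not tested.

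The regulators of coreceptor choice include factors that silence or activate Cd4 and Cd8 in the thymus. Of 16 tested, 13 were called lower, 1 higher and 2 neither, and the median was -1.57. The shares over all tested genes were 43.4% lower and 19.0% higher. Lef1, Bcl11b, Tcf7 and Myb had the largest differences (Tcf7 is also in the list of T cell surface and related genes), with log2 fold changes of -2.90, -2.41, -2.36 and -2.36. Runx3, which represses Cd4 in CD8 T cells, was at 168, 142 and 154 FPKM in S100A4-negative and 101, 87.2 and 116 FPKM in S100A4-positive libraries, without overlap, and fell by 0.61. Its call was lost with median-of-ratios scaling (-0.23, limma adjusted p = 0.160) and with voom and the authors' size factors (-0.23, limma adjusted p = 0.177). Runx1 was the gene called higher (0.68). Zbtb7b, the factor of the CD4 lineage also called ThPOK, was at 15.2, 21.5 and 17.5 FPKM against 40.6, 18.8 and 31.4 FPKM. The groups overlapped through S100A4-positive replicate 2, and the difference of 0.66 did not pass (limma adjusted p = 0.0667). Without that library Zbtb7b passed, at 0.96 (limma adjusted p = 0.00859). Cbfb, the partner of RUNX proteins, did not pass (-0.13, limma adjusted p = 0.350).

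Of 36 signalling genes downstream of the receptor tested, 22 were called lower, 6 higher and 8 neither, with a median of -1.16, where 43.4% of all tested genes were called lower and 19.0% higher. Prkcq, Themis and Lck were among the largest falls, at -2.88, -2.83 and -2.83. LCK starts the cascade by phosphorylating the CD3 tails, the kinase of Prkcq acts further down, and THEMIS tunes the signal in thymocytes. Lck was at 353, 347 and 296 FPKM against 40.2, 39.6 and 59.8 FPKM. The groups were far from overlap, and S100A4-positive replicate 3 was the highest of its group.

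The 6 of 36 signalling genes called higher, beside 19.0% of all tested genes, were Lcp2, Vav1, Grb2, Bcl10, Malt1 and Ptpn6. They are named because they are the whole of that count. Bcl10 lost its call without S100A4-negative replicate 1 or without S100A4-positive replicate 2 or 3 (limma adjusted p up to 0.0656). Each of the 6 genes is also used by receptors of other blood cells. Malt1, a protease of the NF-kB branch, was at 118, 197 and 171 FPKM in S100A4-negative and 352, 491 and 486 FPKM in S100A4-positive libraries and rose by 1.46. Lcp2, which encodes the adaptor SLP-76, rose by 1.41 from 123 ± 23.7 to 329.8 ± 67.5 FPKM (SD, n = 3). Pag1, an adaptor that recruits the kinase CSK, and Fyb, an adhesion adaptor, did not pass (0.40 and 0.34, limma adjusted p = 0.102 and 0.203). Both passed with median-of-ratios scaling (0.77 and 0.72, limma adjusted p = 0.0110 and 0.0305) and with voom and the authors' size factors. Pag1 also passed with the replicate block.

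**Figure D4:**
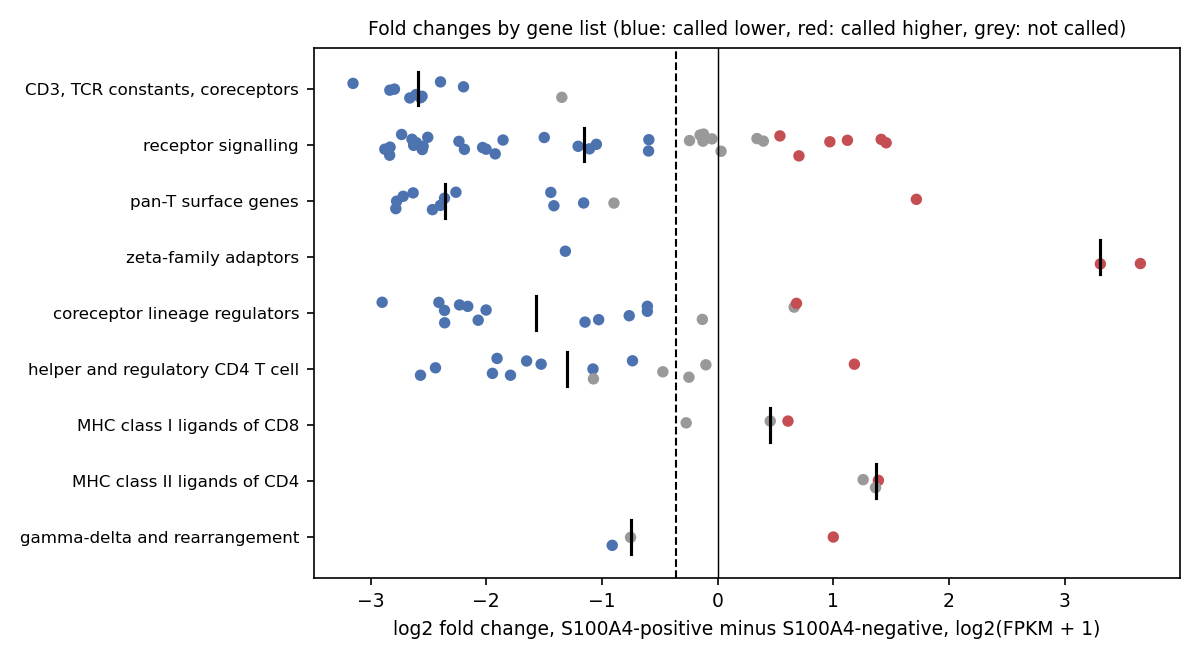
Log2 fold changes (S100A4-positive minus S100A4-negative, log2(FPKM + 1)) of single genes by list, with the list median as a black bar, the median of all tested genes (-0.36) as a dashed line and 0 as a solid line; points are spread vertically at random for visibility. The receptor genes have the lowest list median at -2.59, and the receptor signalling genes spread over both sides.

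Other genes of T cells in general, mostly of surface proteins, were also lower. Of 13 genes, 11 were called lower, 1 higher and 1 neither, with a median of -2.36, beside 43.4% lower and 19.0% higher among all tested genes. Cd28, Cd27, Thy1 and Cd6 fell, with log2 fold changes of -2.78, -2.77, -2.72 and -2.63. CD28 and CD27 are costimulatory receptors, THY1 is a glycoprotein of mouse T cells and CD6 an adhesion receptor. Cd44, the gate's memory marker, which myeloid cells also carry, was the gene called higher (1.72). Cd7, a receptor of T and natural killer cells, did not pass (-0.90, limma adjusted p = 0.0551). It did without S100A4-negative replicate 2 (-1.10) or without S100A4-positive replicate 3 (-1.14).

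Adaptors related to the zeta chain went in opposite directions. Fcer1g, the gamma chain of Fc receptors, which can pair with or replace zeta, was at 74.1, 85.1 and 82.0 FPKM in S100A4-negative and 1085, 974 and 1013 FPKM in S100A4-positive libraries and rose by 3.66. Tyrobp, which encodes the adaptor DAP12 found in myeloid cells, rose by 3.31, and Hcst, the adaptor DAP10 of the receptor NKG2D, fell by 1.32. Fcer1g thus stood below Cd247 in S100A4-negative replicates 1 and 2 and far above it in all S100A4-positive libraries. Myeloid cells express Fcer1g and Tyrobp, and the part of the monocyte and macrophage markers in these values was not tested.

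Genes of the gamma-delta receptor and of receptor rearrangement were near the floor. Of 9 genes, 3 reached the filter of a mean FPKM of 1, and Ptcra, the pre-T alpha chain, was listed at 0 in every library. Trgc1 was at 1.40, 2.37 and 1.68 FPKM against 3.32, 5.66 and 5.05 FPKM and rose by 1.00, while Trgc2 fell by 0.91 with overlapping groups and lost its call without any one of S100A4-negative replicates 1, 2 and 3 or S100A4-positive replicates 1 and 2 (limma adjusted p up to 0.110). The Trgc2 call was also lost with array weights, quantile scaling and no filter (limma adjusted p up to 0.159). Trgc4 did not pass (-0.75, limma adjusted p = 0.113), but did with the replicate block (limma adjusted p = 0.0304). The gamma constant genes are near copies of each other, so reads may be divided among them, and Trdc, the delta constant region, stayed between 0.361 and 1.73 FPKM.

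The ligands of the coreceptors were not lower as a group. Of the MHC class I genes B2m, the light chain, was called higher (0.61), while H2-D1 (0.46, limma adjusted p = 0.0567, and passing in 10 of 16 alternatives with adjusted p from 0.00333 to 0.0495) and H2-K1 (-0.27, limma adjusted p = 0.285) did not pass. B2m lost its call without S100A4-negative replicate 1 or 3 or S100A4-positive replicate 2 or 3, with quantile scaling and with no filter (limma adjusted p up to 0.137). Of the MHC class II genes H2-Aa was at 256, 572 and 873 FPKM against 729, 1679 and 1889.8 FPKM and was called higher with overlapping groups (1.39, limma adjusted p = 0.0464). That call was lost without S100A4-negative replicate 1 or 2 or S100A4-positive replicate 2 or 3, with no filter (limma adjusted p = 0.107) and without trend (limma adjusted p = 0.0506). H2-Ab1 and H2-Eb1 did not pass (1.26 and 1.37, limma adjusted p = 0.0540 and 0.0585).

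Markers of cells that the gate excludes moved between the groups beside the receptor genes. Their counts stand beside 43.4% called lower and 19.0% called higher among all tested genes. Of 14 tested monocyte and macrophage markers 13 were called higher (median 3.55), with Spic, Csf1r and Cd68 rising by 5.65, 5.52 and 4.23 and Ly6c2 not passing. Of 11 dendritic cell markers 8 were called higher and 3 neither (median 2.04), led by Itgax, Batf3, Flt3 and Clec10a at 2.94, 2.81, 2.62 and 2.29, with Irf8, Siglech and Ccr7 not called. That count was 5 without S100A4-positive replicate 2 or without replicate 3. B cell markers were called lower in 10 of 11 (median -1.39; Ighm, Cd79a and Fcrla at -2.88, -1.56 and -1.45), and summed to 7251 to 12722 FPKM in S100A4-negative and 1617 to 1632 FPKM in S100A4-positive libraries. Without S100A4-negative replicate 2 the count was 6. Plasma cell markers were called lower in 7 of 8 (median -1.74), Prdm1 being called higher, with Jchain, Derl3, Tnfrsf17 and Mzb1 at -3.47, -3.20, -2.04 and -1.89. All 11 neutrophil markers were called lower (median -2.35), with Ngp, Ltf, Camp and Lcn2 at -2.81, -2.69, -2.69 and -2.56. None of these 5 lists held a marker at 0 in every library.

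Natural killer cell markers, which share receptors with CD8 effector cells, were called lower in 4 of 5 tested of 8, beside 43.4% of all tested genes. Eomes, a transcription factor of both cell types, fell by 2.89 and Klre1, Itga2 and Klrb1c by 1.71, 0.95 and 0.65. The count was 2 without S100A4-negative replicate 1 or without replicate 3, and Klrb1c was among the calls lost. With a filter of 5 the count was 1. Klri2 did not pass, and Ncr1, a natural killer cell receptor, was at most 0.770 FPKM in any library. Of 4 tested red cell and platelet genes Itga2b was called lower (-1.79) and the other 3, Hbb-bs, Hba-a1 and Alas2, were not called. Most tested markers of B cells, plasma cells and neutrophils, and 4 of the 5 tested of natural killer cells, were thus called lower along with the receptor genes. The part of all these lists in the receptor genes' differences was not tested.

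**Figure D5:**
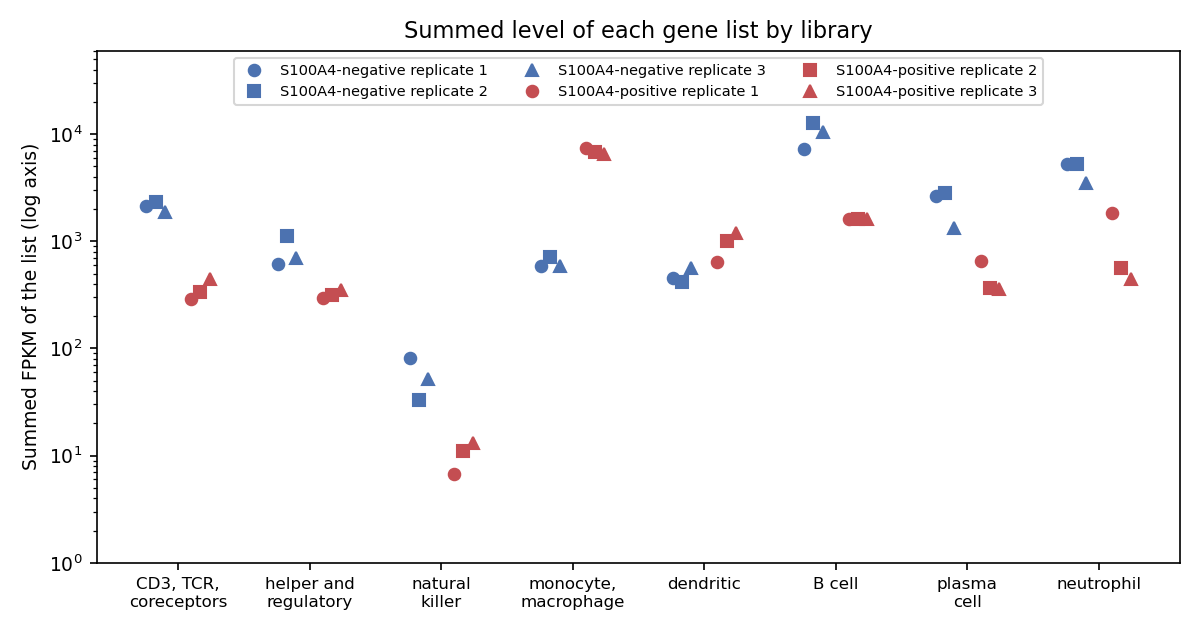
Summed FPKM (log axis) of the receptor and coreceptor genes and of 7 marker lists in each library, S100A4-negative in blue and S100A4-positive in red, with marker shapes for replicate numbers. The receptor genes sum to 1857 to 2311 FPKM in blue and 289 to 440 FPKM in red, and the monocyte and macrophage list goes the other way, from at most 713 to at least 6484 FPKM.

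Genes whose profile over the 6 libraries was closest to those of the members were found by the root mean square difference of centred log2(FPKM + 1) values among 11083 tested genes, without members, pseudogenes, predicted genes or segments of antigen receptors. Closest to the mean of Cd3d, Cd3e and Cd3g were Skap1 (0.093), Lat (0.096), Gimap9 (0.12), Fam169b (0.15) and Zap70 (0.15). Lat encodes the scaffold that the receptor's kinase ZAP-70 phosphorylates, and Skap1 an adhesion adaptor. Among the members not in that mean, Trbc2 lay at 0.14 and Cd247 at 0.30 from it. Closest to the mean of Cd8a and Cd8b1 were Ctsw (0.12), Baiap3 (0.17), Nkg7 (0.19), Eomes (0.23) and Dapl1 (0.24). Ctsw, a cathepsin of cytotoxic lymphocytes, was at 151, 76.2 and 121 FPKM in S100A4-negative and 9.53, 13.2 and 16.9 FPKM in S100A4-positive libraries, low in S100A4-negative replicate 2 as both CD8 chains were.

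The profile of Cd4 was matched less closely. Ccn4, a secreted matrix protein gene, was nearest at 0.18, followed by Sostdc1, Fbn2, Snora17 and Gpm6b at 0.23, 0.26, 0.27 and 0.28, and no other member came nearer than 0.78. All 5 were highest in S100A4-negative replicate 2, where Ccn4 was at 17.7 FPKM against 6.33 or less in its fellows. Some of them were low: Snora17 had 2 to 27 reads per library, Fbn2 6 to 211 and Sostdc1 21 to 554. The log2(FPKM + 1) scale understates changes at such levels. The likeness is a description over 6 libraries of 2 groups.

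Of the nearest tested genes within 100 kb of the members, some fell and some rose. Smyd1, 554 bases from Cd8b1, fell from 4.46 ± 1.40 to 0.611 ± 0.132 FPKM (SD, n = 3; -1.74), and Rmnd5a on the far side of Cd8a by 0.54. Ephb6, the nearest tested gene beyond Trbc2, fell by 1.87. Ube4a and Dad1, beside the CD3 cluster and Trac, did not pass (-0.36 and -0.26, limma adjusted p = 0.0720 and 0.115), while Mpzl3 on the other side of the CD3 cluster fell by 0.76. Creg1, 13372 bases before Cd247, went from 23.9 ± 4.09 to 179 ± 25.4 FPKM and rose by 2.86. Beside Cd4, Gpr162, 708 bases away, rose by 1.31 from 1.26 ± 0.543 to 4.73 ± 1.90 FPKM. Lag3, an inhibitory receptor that resembles CD4 and binds MHC class II, lies 16139 bases on the other side, and was at 70.6, 81.2 and 55.0 FPKM in S100A4-negative and 18.9, 21.6 and 32.7 FPKM in S100A4-positive libraries. Lag3 fell by 1.48 without overlap, and its S100A4-negative libraries were closer together than those of Cd4.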

How the data were processed

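Per the submitters' processing notes, the tools were HISAT2 2.1.0, Cufflinks and Cuffnorm and the build mm10; which tool made the values is not stated. The deposited table gives FPKM per gene and library. A second table of the authors holds their own comparison, with, per the file headers, a mean normalized read count (a signal) per group, a log2 fold change, a p-value and an adjusted p-value; its test is not given in the sources used here. Whole reads were recovered from FPKM and the authors' group means (all 135018 values above 0 lay within 0.02 of a whole read), and lengths implied by FPKM match GENCODE M21 mean transcript lengths for the members. Coordinates and exon overlaps are from M21 (GRCm38, the build that mm10 names).

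Testing used limma 3.58.1 (R 4.3.3), trended and not robust, with Benjamini-Hochberg adjustment, for log2(FPKM + 1) of the 13241 genes whose mean FPKM reached 1 (42710 left out). This scale understates the change of low genes. A gene was called at an adjusted p under 0.05. Ratios used exact two-sided permutation tests. Other steps used Python 3.11.15, numpy 2.4.6, pandas 2.3.3 and matplotlib 3.10.9. In a simulation of 13241 genes at a dispersion of 0.018, 67 genes were changed 1.5-fold, 67 changed 2-fold and 66 changed 4-fold. Of these, 26.9%, 70.2% and 97.0% were called in the right direction, and 22 calls were false. The simulation changed far fewer genes than the 62.3% called between the real groups, so its rates may not hold there.

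The members, the 15 lists, the promoter motifs and the rule for named genes were chosen with earlier results of these data known. The rule names all members, S100a4, up to 4 called genes per list with the largest change and up to 2 not called with the smallest p, and 5 nearest profiles; further genes were named after their values were seen. A few selected genes stay in the counts and are not named here. Alternatives were another pseudocount, other filters, median-of-ratios and quantile scaling, array weights, a fit without trend, each library left out in turn, the replicate number as block, voom on recovered reads and, chosen after seeing the data, voom with the authors' size factors and longest-transcript lengths.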

Additional observations from a re-analysis of the deposited data

How the results depend on the processing

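The 9 genes called lower stayed called in all 16 alternatives, and Cd4 was called in 3: with array weights (limma adjusted p = 0.0485), with the replicate block and without S100A4-negative replicate 1. Over all 16, the limma adjusted p of Cd4 ranged from 0.0144 to 0.175 and its log2 fold change from -1.85 to -0.70. The members called lower numbered 9 or 10, and the genes called numbered from 6198 to 8916. With median-of-ratios scaling the median of all genes moved from -0.36 to -0.02, and 52.9% of calls were higher in place of 30.4% (54.1% with voom and the authors' size factors, 42.2% with quantile scaling); all 10 members stayed lower, and the median of all genes should be read beside each fold change. The 4 named genes near 0 changed sign under median-of-ratios scaling and under voom with the authors' size factors, with log2 fold changes of 0.24 and 0.25 for Cbfb, 0.11 and 0.12 for H2-K1, 0.0040 and 0.014 for Ube4a, and 0.10 and 0.11 for Dad1. Rmnd5a and Mpzl3 lost their calls under both, and Zbtb7b, Pag1, Fyb, H2-D1, H2-Ab1 and H2-Eb1 gained one. Runx3, Pou2f1, Trgc2, Klrb1c, Ccn4, Snora17 and Gpm6b also lost theirs under both. Leaving out 1 library moved the log2 difference of Cd4 over Cd8a from 1.25 to between 0.48 and 2.22 (without S100A4-negative replicates 1 and 2), and that of Cd247 over Cd3e from 0.41 to 0.082 without S100A4-positive replicate 2.

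Counts of calls moved by over 1.5 times for some lists: receptor signalling genes called higher went from 6 to 10 under both of these scalings, B cell markers called lower from 10 to 6 under median-of-ratios scaling and without S100A4-negative replicate 2, dendritic cell markers called higher from 8 to 5 without S100A4-positive replicate 2 or 3, and natural killer cell markers called lower from 4 to 1 with a filter of 5 and to 2 without S100A4-negative replicate 1 or 3. The MHC class I genes called higher went from 1 to 2 under 9 alternatives and to 0 under 5. The MHC class II genes called higher went from 1 to 3 under 8 alternatives and to 0 under 6. The cause was not tested.

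The groups share replicate numbers, but the labels give no pairing. Deviations from the group means correlated at 0.376, 0.083 and 0.366 for numbers 1, 2 and 3. Each S100A4-negative library correlated best with the S100A4-positive library of its own number. S100A4-positive replicate 2, however, correlated best with S100A4-negative replicate 3 (0.146). Whether the samples were paired cannot be told from these values. With the replicate block 8857 genes were called in place of 8253, 10 members were called lower, and Cd4 had a limma adjusted p of 0.0346. With 3 libraries a group, a ratio between members cannot pass an exact test, and smaller differences can be missed at this depth.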
